A study of Sorghum bicolor with 24 samples.

Results

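Pith parenchyma was compared with vascular parenchyma in the stem of Sorghum bicolor cv. Wray, over all genes of the count table. The comparison used 8 of the 24 libraries of the series, 4 from pith parenchyma and 4 from vascular parenchyma, chosen by the cell type in their labels. All plants were of the one cultivar, with no treatment or transgene named in the labels, and were grown in a greenhouse under 14-h days. Internodes at phytomer 8, the most recent to have finished elongating, came from 4 vegetative plants of 74 days. Cryosections of 20 µm were cut, and each cell type was taken out of them by laser capture microdissection, in which a laser under a microscope cuts chosen cells free. The other libraries were from phloem, xylem sclerenchyma, epidermis and bulk whole stem, 4 of each. The sample names say vascular parenchyma, while the collection protocol in the labels lists xylem parenchyma and no vascular parenchyma, so the exact position of these cells within the bundle rests on those names.

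Parenchyma is the living, mostly thin-walled ground tissue of plants. In a grass stem, pith parenchyma fills the space between the scattered vascular bundles and is the main storage tissue for water and, in sweet-stemmed sorghums, for sugar held in large vacuoles. Vascular parenchyma lies inside the bundles next to the conducting cells, where such cells exchange water, ions and sugars with the xylem and phloem. The files used here give gene identifiers without product names, so no role is given to any gene, and the labelled types were not checked here against defining marker genes of either type or of neighbouring cells. In captured tissue, fewer cells of a kind and less RNA per cell cannot be told apart.

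Pith parenchyma libraries were shallower than vascular parenchyma libraries. They held 12449676, 11193692, 8247350 and 12740916 counts in replicates 1 to 4, against 15384495, 12997022, 22771335 and 26835924 in vascular parenchyma. The groups did not overlap, and the difference in means of -8339286 had p = 0.0286 in a two-sided exact permutation test, the smallest p that 4 libraries against 4 allow. The numbers of detected genes overlapped between the tissues. Genes above 1 CPM, the count scaled by the library's total to a common size, numbered 15950, 15420, 14639 and 16023 in pith parenchyma, against 15412, 16395, 15395 and 13378 in vascular parenchyma. The means were 15508 ± 639 and 15145 ± 1267 (SD, n = 4 each) (two-sided exact permutation p = 0.657). With every library thinned to 8247344 counts the means were 15474 in pith parenchyma and 15090 in vascular parenchyma. The 100 genes with the most counts took 24.3% ± 1.95 of a pith parenchyma library and 24.6% ± 1.63 of a vascular parenchyma library (SD, n = 4 each; exact permutation p = 0.857).

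Both tissues detected largely the same genes but differed in which of them were most abundant. Above 1 CPM in at least 3 of 4 libraries were 14631 genes in pith parenchyma and 14150 in vascular parenchyma. Of these, 12267 were common, which is 83.8% of the pith parenchyma set and 86.7% of the vascular parenchyma set. There were 544 genes detected in pith parenchyma that passed 1 CPM in no vascular parenchyma library, and 605 the other way round. Whole stem also detected 491 of the 544 and 399 of the 605 in at least 3 of 4 libraries, beside 91.9% of all genes tested below. The share of the 544 was near that background, and the share of the 605 was well below it. The test described below called 145 of the 544 higher in pith parenchyma and 248 of the 605 higher in vascular parenchyma. Over all genes tested it called 2.96% higher in pith parenchyma and 4.21% higher in vascular parenchyma. Ranked by mean CPM, which is not corrected for gene length, the first 100 genes of each type had 31 in common and the first 1000 had 447 in common. Among the first 100 of pith parenchyma, 57 were called higher there and 2 lower by the test described next, and among the first 100 of vascular parenchyma, 57 were called higher there and 4 lower. Of tested genes averaging 1000 CPM or more over the 20 laser capture libraries, 20.3% were called higher in pith parenchyma and 25% higher in vascular parenchyma. All these sets were picked on levels in the same 8 libraries as the test, which favours calls in that direction.

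Differential expression was tested with edgeR's quasi-likelihood F test, fitted over the 20 laser capture libraries, with Benjamini-Hochberg adjustment over the 19502 genes that passed the low-count filter. Calls required an adjusted p below 0.05 together with a log2 fold change, taken as pith parenchyma minus vascular parenchyma, of 1 or more in size. There were 1398 called genes, 7.17% of those tested. Of these, 577 (2.96% of those tested) were higher in pith parenchyma and 821 (4.21%) were higher in vascular parenchyma. At an unadjusted p under 0.05 there were 4361 genes, 22.4% of those tested. Over all genes tested the median log2 fold change was 0 and 49.7% lay above 0. The filter was applied over 5 cell types, and 119 of the tested genes were at 0 in all 8 libraries.

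**Figure D1:**
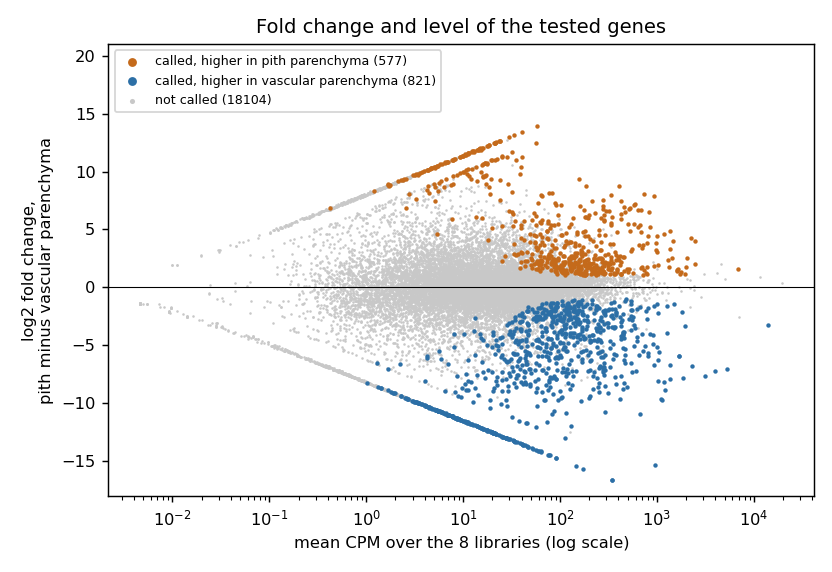
Log2 fold change (pith parenchyma minus vascular parenchyma) against mean CPM over the 8 libraries for the 19502 tested genes, except the 119 at 0 in all 8. Orange points are the 577 genes called higher in pith parenchyma, blue the 821 called higher in vascular parenchyma and grey the rest; the straight upper and lower edges are genes at 0 in all 4 libraries of the lower type, whose fitted fold depends on the prior count.

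The called genes carried a large part of the RNA of their own tissue. The 577 genes higher in pith parenchyma took 24%, 18.8%, 19.1% and 25.9% of the counts in pith parenchyma replicates 1 to 4, against 3.29%, 4.94%, 3.78% and 2.87% in vascular parenchyma. The 821 genes higher in vascular parenchyma took 2.72%, 2.85%, 2.94% and 2.36% in pith parenchyma, against 30.1%, 24.2%, 29.1% and 31.6% in vascular parenchyma. These shares describe genes chosen by the same contrast and carry no test. In every library of a tissue the share was several times that of the other tissue, and the 2 libraries with replicate number 2 had the smallest share of their own tissue's genes.

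In most called genes the 8 libraries separated fully, which choosing the genes by a contrast of the same libraries favours. The groups did not overlap in 518 of the 577 genes higher in pith parenchyma and in 792 of the 821 higher in vascular parenchyma. Over all genes tested, 2335 (12%) did not overlap with pith parenchyma higher and 2133 (10.9%) with vascular parenchyma higher, so most non-overlapping genes were not called. In the 12204 genes averaging 10 CPM or more over the 8 libraries, the median SD of log2(CPM + 1) between the 4 libraries was 0.73 in pith parenchyma and 0.69 in vascular parenchyma. Genes at 0 in one library but at 10 CPM or more in another of the same type numbered 2011 in pith parenchyma and 1936 in vascular parenchyma.

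The called differences had a larger median size toward vascular parenchyma. Among called genes with more than 3 counts over the 4 libraries of the lower type, the median log2 fold change was 2.52 in size for 438 genes higher in pith parenchyma and 4.25 for 608 genes higher in vascular parenchyma. Of the 438, 145 (33.1%) were under 2 on the log2 scale and 59 (13.5%) were at 6 or more. Of the 608, 82 (13.5%) were under 2 and 177 (29.1%) at 6 or more. Genes at 0 throughout the lower type have no defined fold. With these set at their lower bound, against a floor of 3 counts per library, the medians over all called genes were 3.63 for pith parenchyma and 5.12 for vascular parenchyma. These sizes describe called genes, which had to pass an adjusted p and a minimum fold. The median standard error of the log2 fold change was 0.736 for calls higher in pith parenchyma and 1.34 for calls higher in vascular parenchyma. The 2 directions were thus called at unlike precision, and the asymmetry between them was not tested.

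**Figure D2:**
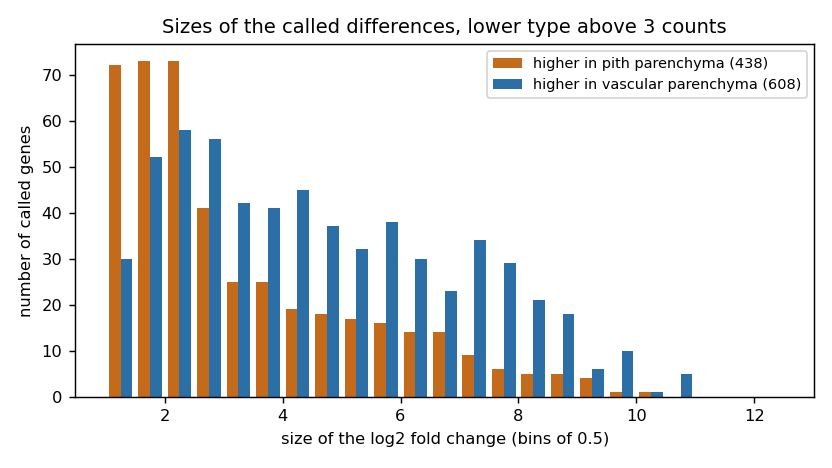
Number of called genes by size of the log2 fold change, in bins of 0.5, for genes with more than 3 counts in the lower type. Orange bars are the 438 genes higher in pith parenchyma and blue bars the 608 higher in vascular parenchyma; the orange bars crowd below 3 and the blue bars extend more evenly up to about 9.

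A part of the calls were present in one tissue and at 0 in the other. Of the 577 genes higher in pith parenchyma, 89 (15.4%) had no counts in any vascular parenchyma library and 50 had 1 to 3 counts in all. Of the 821 higher in vascular parenchyma, 185 (22.5%) had no counts in any pith parenchyma library and 28 had 1 to 3. Over all tested genes, 616 had counts in pith parenchyma and none in vascular parenchyma, and 878 had counts in vascular parenchyma and none in pith parenchyma, so most genes at 0 in one tissue alone were not called. The mean floor of 3 counts per library was 0.277 CPM in pith parenchyma and 0.167 CPM in vascular parenchyma, so the limit was lower in vascular parenchyma, and these limits cover counting error only. After thinning of the 8 libraries to one depth the numbers at 0 were 119 and 191. At the other end, 346 of the 577 genes were above 1 CPM in all 4 vascular parenchyma libraries and 366 of the 821 were above 1 CPM in all 4 pith parenchyma libraries. These were graded differences in genes detected in the captures of both tissues. Whether neighbouring cells supplied a part of the lower level was not tested.

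Calls concentrated in genes with many counts, where the error was smaller. By mean CPM over the 20 laser capture libraries, genes below 1 CPM gave 3 calls higher in pith parenchyma and 2 higher in vascular parenchyma of 887 tested. Between 1 and 10 CPM, 1.54% of 6156 genes were higher in pith parenchyma and 1.75% higher in vascular parenchyma. Between 10 and 100 CPM these were 2.03% and 3.96% of 10469 genes. Between 100 and 1000 CPM they were 13.2% and 14.5% of 1926 genes, and from 1000 CPM upward 13 and 16 of 64 genes. The median standard error of the log2 fold change was 2.31 between 1 and 10 CPM, 1.13 between 10 and 100 and 0.446 between 100 and 1000. Vascular parenchyma had the larger number of calls in each of these classes except the lowest, and its excess was widest between 10 and 100 CPM, with 415 genes against 212.

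The precision of the 20-library fit also limited what could be called alike. Over the tested genes the median standard error of the log2 fold change was 1.48, and the median biological coefficient of variation, the relative spread between replicates beyond counting error, was 1.25. A log2 fold change of 3 or more in size was estimated for 3261 genes that were not called. Only 296 genes (1.52%) had a 95% interval that lay wholly within a log2 fold change of -1 to 1. Their median level was 151 CPM over the 20 laser capture libraries, against 18 CPM for all tested genes. For the remaining uncalled genes this fit neither called a difference nor bounded it within that range.

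Genes were then called anew without 1 library of each type, and those new calls were examined in the 2 left-out libraries. Each new set was smaller than the main set of its direction, so the shares below do not cover all main calls. The libraries of the other captured types stayed in each fit. The labels do not state that equal numbers mark one plant, so a left-out plant may still have supplied libraries to the fit. For each replicate number, both the pith parenchyma and the vascular parenchyma library were left out, genes were called from the other 3 against 3 in the same edgeR model, and the 2 left-out libraries were compared on log2(CPM + 1). Leaving out number 1 gave 148 genes called higher in pith parenchyma, of which 147 were higher in the left-out pith parenchyma library, and 332 called higher in vascular parenchyma, of which 328 were higher in the left-out vascular parenchyma library. For number 3 these were 212 of 217 and 326 of 332, and for number 4 they were 128 of 128 and 266 of 273. Number 2 gave the lowest shares, 293 of 324 (90.4%) and 448 of 476 (94.1%). Over all genes tested, the left-out pith parenchyma library was higher in 44.7% to 50.8% and the left-out vascular parenchyma library in 40.4% to 45.6%. The median difference of the called genes in the left-out pair was 1.74 to 3.87 for those higher in pith parenchyma and -4.32 to -3.32 for those higher in vascular parenchyma, with the smallest size of both in number 2.

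**Figure D3:**
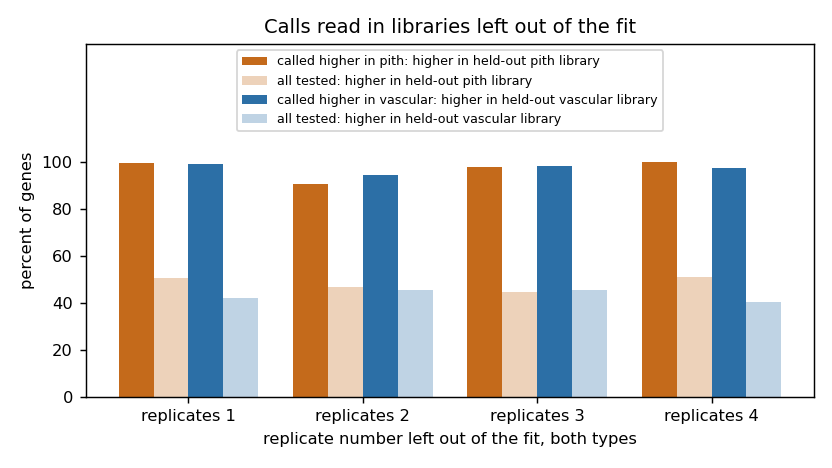
Percent of genes higher in the library of the named type, for each replicate number whose 2 libraries were left out of the fit. Dark orange bars are genes called higher in pith parenchyma and dark blue bars genes called higher in vascular parenchyma, from 90.4% to 100%; pale bars are all tested genes, from 40.4% to 50.8%.

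Rank correlations between the 8 libraries were computed across 20892 genes, a description in which genes are not independent. Mean Spearman rho with the other 3 libraries of the same type was 0.772 in pith parenchyma replicate 2 and 0.802 to 0.827 in the others of that type. Against the opposite type, the pith parenchyma libraries had means of 0.604 to 0.63, the highest in replicate 3. Vascular parenchyma replicate 2 had a mean of 0.666, compared with 0.57 to 0.619 in the other vascular parenchyma libraries. Every library correlated better on average with its own type (0.772 to 0.827) than with any single library of the other (0.581 to 0.686). The part of these libraries in the size of the calls was not tested beyond leaving each one out.

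Levels of the called genes in the other tissues separated the vascular from the non-vascular types. For the 577 genes higher in pith parenchyma, the median of the group means was 168 CPM in pith parenchyma and 17.6 CPM in vascular parenchyma. It was 23.8 CPM in phloem, 33.9 in xylem sclerenchyma, 97.8 in epidermis and 115 in whole stem. By library, the epidermis medians of 73.5 to 106 CPM all lay above the xylem sclerenchyma medians of 28.7 to 36.2 CPM and the phloem medians of 17.2 to 27.8 CPM. For the 821 genes higher in vascular parenchyma, the median was 3.79 CPM in pith parenchyma and 133 CPM in vascular parenchyma, with 61.5 in phloem, 56.2 in xylem sclerenchyma, 11.8 in epidermis and 28.2 in whole stem. The library medians were 40.1 to 67.9 CPM in phloem and 27.7 to 74.1 CPM in xylem sclerenchyma, above all epidermis libraries, which ran from 0.515 to 10.7 CPM. Over all tested genes the medians of the group means were 13.4 to 17.5 CPM in the 6 groups. The library medians over all tested genes were 2.37 to 13.8 CPM in epidermis, 5.35 to 16.2 in phloem and 11.3 to 14.3 in xylem sclerenchyma. The lowest library medians of the called genes are to be read beside these.

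**Figure D4:**
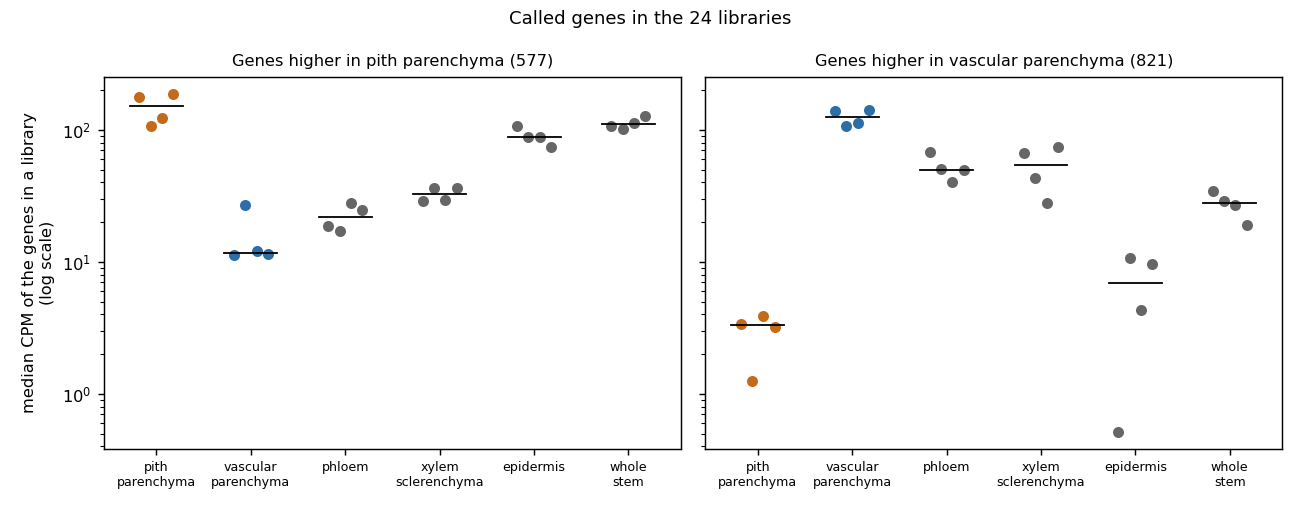
Median CPM (log scale) of the 577 genes higher in pith parenchyma (left) and the 821 higher in vascular parenchyma (right) in each of the 24 libraries, with a line at the median of the 4 libraries. Epidermis and whole stem lie near pith parenchyma on the left, and phloem and xylem sclerenchyma lie between vascular parenchyma and epidermis on the right.

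Of the 5 captured tissues, the highest mean was that of pith parenchyma for 442 of the 577 genes and epidermis for 117, with 13 highest in xylem sclerenchyma and 5 in phloem. Vascular parenchyma had the highest mean for 605 of the 821, phloem for 129, xylem sclerenchyma for 58 and epidermis for 29. Over all tested genes epidermis was highest in 20.5%, phloem in 21.9% and xylem sclerenchyma in 14.3%. Detection in at least 3 of 4 libraries was also compared. Of all tested genes, 73.9% were detected in phloem, 72.6% in xylem sclerenchyma, 61.3% in epidermis, 74.9% in pith parenchyma and 72.5% in vascular parenchyma. Of the 821 genes, 88.8% were detected in phloem and 91.4% in xylem sclerenchyma, against 53.6% in epidermis and 53.5% in pith parenchyma. Of the 577, 88.2% were detected in epidermis, 70.4% in phloem, 78.9% in xylem sclerenchyma and 66.9% in vascular parenchyma. Phloem and xylem sclerenchyma were thus above the share of all tested genes for the 821 and epidermis below it, while for the 577 genes epidermis and xylem sclerenchyma were above that share and phloem below it.

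A contrast that uses none of the 8 libraries gave the same division. Xylem sclerenchyma minus epidermis on log2 CPM was above 0 for 23.1% of the 577 genes higher in pith parenchyma and for 87.9% of the 821 higher in vascular parenchyma, beside 60.7% of all tested genes. The medians were -1.07, 2.96 and 0.55 on the log2 scale. Phloem minus epidermis was above 0 for 10.4% and 84.4%, beside 57.2% of all tested genes, with medians of -1.77, 2.69 and 0.4. Taken by replicate number, 1 library against 1, the share for the 577 genes ran from 24.1% to 27.9% and from 11.8% to 16.5% in the 2 contrasts, and that for the 821 from 73.8% to 87.5% and from 66.4% to 87%. Over all tested genes the same 1-against-1 shares ran from 42% to 60.3% and from 34.2% to 61.2%. Epidermis replicates 1 and 2 and phloem replicate 3 detected few genes. Without them the shares were 19.8% and 87.8% for xylem sclerenchyma minus epidermis, beside 43% of all tested genes, and 8.67% and 86% for phloem minus epidermis, beside 47.6%. The libraries of these contrasts also had a part in the 20-library fit that chose the 577 and 821 genes. With the genes called in the fit of the 8 libraries alone, the shares were 29.7% and 88.5% for xylem sclerenchyma minus epidermis. For phloem minus epidermis they were 16.6% and 84.3%. All these values are a description, since the same plants supplied all types.

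In whole stem, most called genes stood between their levels in the 2 tissues. The whole stem mean lay between those of the 2 tissues for 524 of the 577 genes higher in pith parenchyma and above both for the other 53. For the 821 genes higher in vascular parenchyma it lay between for 788, above both for 20 and below both for 13. Called genes were chosen for a wide gap between the 2 tissues, which favours a position between them. These positions were not counted over all tested genes and carry no test. On log2(CPM + 1), whole stem was nearer to pith parenchyma than to vascular parenchyma for 548 (95%) of the 577 genes and for 466 (56.8%) of the 821, beside 62.4% of all tested genes.

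Some called genes stood side by side in the annotation, mainly those higher in vascular parenchyma. The identifiers carry a chromosome number and a serial number along the chromosome, so the next listed gene is a neighbour in the annotation. Of 523 genes higher in vascular parenchyma whose next listed gene was also tested, 68 (13%) had a next gene higher in vascular parenchyma, while 4.1% of all 12198 such pairs had one. Of 369 genes higher in pith parenchyma, 16 (4.34%) were followed by a gene higher in pith parenchyma, beside 2.87% of all pairs. Neighbours called in opposite directions followed 6 and 9 of these genes. Runs of adjacent calls held 32 of the 577 genes, none longer than 2, and 125 of the 821 genes, of which 7 runs had 3 or more genes and the longest had 4. In the runs of vascular parenchyma genes, 64 of 125 (51.2%) had counts that were not whole numbers in some of the 8 libraries, which arise where reads are divided among similar sequences, against 199 of 696 (28.6%) outside runs. Values of such near-copies are uncertain, and the part of shared reads in the runs was not tested. By chromosome, 2.44% (chromosome 7) to 3.38% (chromosome 9) of tested genes were higher in pith parenchyma and 3.08% (chromosome 5) to 5.0% (chromosome 4) higher in vascular parenchyma.

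Single genes are printed for 2 in each direction, the one with the largest fold and the one with the highest mean CPM. Both were taken from the called genes with no overlap between the 4 and 4 libraries and an average of 10 CPM or more in the higher tissue. There were 495 such genes higher in pith parenchyma and 756 higher in vascular parenchyma.

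The largest fold toward pith parenchyma was in Sobic.009G116700. It stood at 183, 15.1, 33.3 and 226 CPM in pith parenchyma replicates 1 to 4 and at 0 in all 4 vascular parenchyma libraries. Replicates 1 and 4 were high and replicates 2 and 3 far lower, but all were above every vascular parenchyma library. The mean of 114 ± 106 CPM (SD, n = 4) was at least 684-fold higher than the vascular parenchyma floor of 3 counts per library, with an adjusted p of 0.00396 in edgeR's quasi-likelihood test. Epidermis carried the gene as strongly, at 217, 123, 88.7 and 21.7 CPM. Phloem was at 0 in 3 libraries and at 2.97 CPM in replicate 4, xylem sclerenchyma lay between 0 and 7.99 CPM, and whole stem between 7.05 and 31.6 CPM.

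The called gene with the highest CPM in pith parenchyma was Sobic.001G191200. It had 12179, 4869, 12730 and 11795 CPM in pith parenchyma, against 2330, 3999, 4595 and 2097 CPM in vascular parenchyma. Replicate 2 of pith parenchyma was low and only just above the highest vascular parenchyma library. The means were 10393 ± 3703 and 3255 ± 1231 CPM (SD, n = 4 each), a log2 fold change of 1.55 (SE 0.405, adjusted p = 0.0231, edgeR). The gene was abundant in every tissue, with means of 2629 CPM in phloem, 4994 in xylem sclerenchyma, 4801 in epidermis and 6857 in whole stem. Its call was among the less stable: leaving out pith parenchyma replicate 1, 3 or 4 or vascular parenchyma replicate 1 or 4 gave adjusted p of 0.0574, 0.0588, 0.0654, 0.0762 and 0.0772 in edgeR's test, within a range of 0.00818 to 0.478 over all alternatives.

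The largest fold toward vascular parenchyma was in Sobic.010G245500. It was at 0 in all 4 pith parenchyma libraries and at 443, 527, 933 and 864 CPM in vascular parenchyma. The mean of 692 ± 243 CPM in vascular parenchyma (SD, n = 4) put pith parenchyma at least 2497-fold lower, against its floor of 3 counts per library, with an adjusted p of 0.0173 in edgeR's test. Leaving out pith parenchyma replicate 1 or 4 gave adjusted p of 0.0532 and 0.0559 in that test, within a range of 4.38e-35 to 0.216 over all alternatives. Xylem sclerenchyma was next, at 185, 33.4, 95.1 and 338 CPM, all below the lowest vascular parenchyma library. Phloem was at 0 in 2 libraries and at 6.14 and 7.72 CPM in the others, and epidermis had 54.4 CPM in replicate 2 and at most 1 count in each of the other 3. Whole stem carried it evenly, at 54.6, 41.2, 34.8 and 31 CPM.

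The called gene with the highest CPM in vascular parenchyma was Sobic.009G033600. It had 2826, 2979, 3475 and 2237 CPM in pith parenchyma, against 17624, 22425, 41828 and 17193 CPM in vascular parenchyma. The pith parenchyma libraries were close together and far below all vascular parenchyma libraries, of which replicate 3 was the highest. The means were 2879 ± 510 and 24767 ± 11618 CPM (SD, n = 4 each), a log2 fold change of -3.26 (SE 0.433, adjusted p = 0.00011, edgeR). This gene was not specific to vascular parenchyma: xylem sclerenchyma had more, at 31735, 26083, 38469 and 30675 CPM, and phloem had 6071 to 16109 CPM. It was called in each omission of 1 of the 8 libraries.

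**Figure D5:**
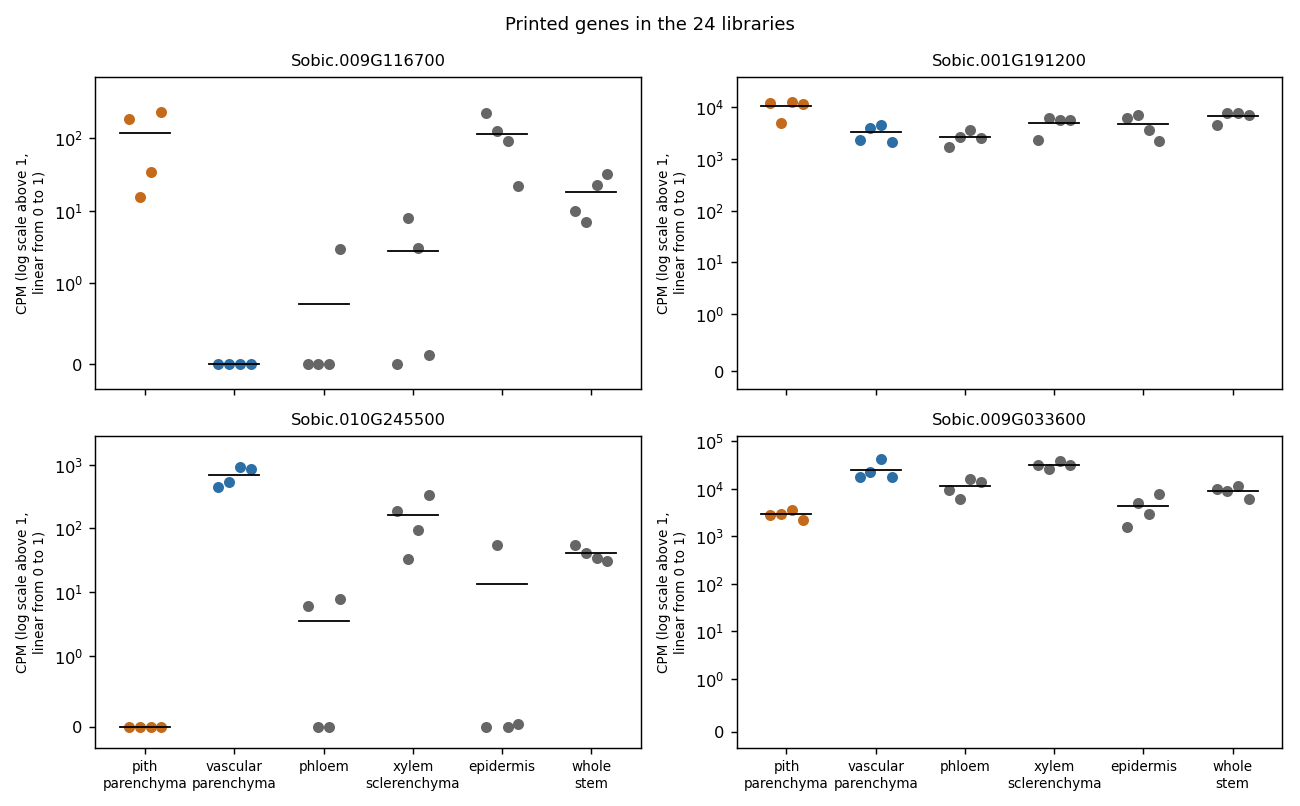
CPM of the 4 printed genes in the 24 libraries, on an axis that is logarithmic above 1 CPM and linear from 0 to 1, with a line at the mean of each group. In the left panels one tissue is at 0 in all 4 libraries, and in the right panels every library of the 6 groups is above 1000 CPM.

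The number of calls depended on the libraries and on the tool, while none of the 1398 genes was called in the opposite direction in any fit run. Leaving out 1 of the 8 libraries gave 690 to 1135 calls, and the lowest counts came without pith parenchyma replicate 4 (690), vascular parenchyma replicate 1 (794) and pith parenchyma replicate 1 (828), then vascular parenchyma replicates 3 and 4 (870 each) and pith parenchyma replicate 3 (912). These single omissions kept 48.6% to 72.8% of the 1398 calls. A fit of the 8 libraries alone called 2099 genes, 791 higher in pith parenchyma and 1308 higher in vascular parenchyma, including 1236 of the 1398. Without the 3 libraries of epidermis and phloem that detected few genes, 2514 were called, including 1393 of the 1398. In vascular parenchyma, phloem, xylem sclerenchyma and epidermis, replicates 1 and 2 were shallower than 3 and 4. Pith parenchyma alone among the captured types did not have this order, and its smallest total, 8247350, was in replicate 3. The labels give no sequencing run. Within replicates 1 and 2 there were 46 calls, 5 higher in pith parenchyma and 41 higher in vascular parenchyma, and within replicates 3 and 4 there were 162, 48 and 114. The 2 sets kept 3.29% and 10.2% of the 1398 calls. Vascular parenchyma had the larger number in each of these fits.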

How the data were processed

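Full-length cDNA libraries (SMART-Seq v4 PLUS) were read as single ends of 150 bp, per the labels' protocols; no molecular identifiers are named there. The deposited table holds the authors' estimated counts for each gene, not normalized (34117 genes, 24 libraries). The submitters' processing notes name FastQC, Salmon and alevin; their versions, the transcript index, the build, the annotation and the handling of reads shared by near-identical genes are, here, not given in the sources used. Of all values 10.5% were not whole, and the expected counts were rounded for the count models. The supplied gene table matched 0 identifiers, so the gene lists and marker lists by product name that had been planned were not built. Members, rules and tests were chosen with earlier results of these data known.

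Tests used R 4.3.3 with edgeR 4.0.16 (filterByExpr, TMM, robust dispersion, quasi-likelihood F test, Benjamini-Hochberg adjustment over 19502 genes) on the 20 laser capture libraries; calls needed an adjusted p under 0.05 and a log2 fold change of 1. The standard error is the size of the log2 fold change over the square root of F. CPM are counts scaled by library totals. Alternatives used DESeq2 1.42.0 and limma 3.58.1. The edgeR script was tested on simulated data. The 4 replicates came from 4 plants per the labels, which do not state that equal numbers mark one plant. Printed genes followed the rule given beside them, which took the first gene of each of the 2 rankings.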

Additional observations from a re-analysis of the deposited data

Results flagged for a closer look

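In 4 of 44 sets of 4 libraries, 1 library stood far from the other 3; chance alone gives about 1 set in 20. Vascular parenchyma replicate 3 had 27% of its counts in its 100 most abundant genes, against 23.6%, 23.6% and 24.1% in the other 3. Pith parenchyma replicate 2 was the lowest of its type for Sobic.001G191200, at 4869 CPM against 11795 to 12730. In phloem, replicate 4 alone had counts of Sobic.009G116700, at 2.97 CPM. In epidermis, replicate 2 had 54.4 CPM of Sobic.010G245500, while the others had at most 1 count.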

How the results depend on the processing

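The count of 1398 calls stayed within 1.5 times under RLE size factors (1402), no low-count filter (1141), the replicate set (1 and 2, or 3 and 4) as a covariate (1318), no minimum fold (1409) and, chosen after seeing the data, thinning of the 8 libraries to one depth (1340). The replicate set does not follow depth in pith parenchyma, so that covariate did not adjust the contrast for depth. It moved to 2099 in the 8-library fit, 2514 without the 3 libraries of few detected genes, 46 within replicates 1 and 2, 162 within replicates 3 and 4, 3261 with DESeq2 and 4093 with limma voom and quality weights; the causes were not tested. Single omissions gave 690 to 1135. The share of calls higher in pith parenchyma, 41.3%, was 10.9% within replicates 1 and 2 and 29.6% within 3 and 4. With the replicate number as a block there were 1199 calls in the 20-library fit and 962 in the 8-library fit, of which 27.2% were higher in pith parenchyma. These held 1104 and 710 of the 1398 main calls. Deviations of same-numbered libraries correlated at -0.0285 to -0.0006, and none of the 4 pith parenchyma libraries correlated best with its own number, so the numbers were not treated as pairs.

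Xylem sclerenchyma minus epidermis was above 0 for 23.1% of the genes higher in pith parenchyma. With the gene sets of other fits this was 29.7% (8 libraries), 25.7% (replicate block), 32.1% (replicate block, 8 libraries), 30.1% (without the 3 libraries), 0.0% and 27.1% (within replicates 1 and 2, and 3 and 4), 28.7% (DESeq2), 35.0% (limma voom) and 19.5% to 25.8% (single omissions). For phloem minus epidermis, 10.4% became 16.6% (8 libraries), 13.7% (replicate block, 8 libraries), 16.9% (without the 3 libraries), 0.0% and 14.6% (within replicates 1 and 2, and 3 and 4), 17.4% (DESeq2), 23.2% (limma voom) and 7.39% to 9.63% (single omissions). For genes higher in vascular parenchyma, 87.9% became 94.3% (replicate block, 8 libraries), 97.6% and 98.2% within the 2 sets, and 84.4% became 97.6% and 95.6% there. The value of 0.0% rests on 5 genes.

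The difference in detected genes, 363, was 209 at 5 CPM, 384 after thinning and -226 to 780 over single omissions, the value without vascular parenchyma replicate 4 being the one below 0, with no exact permutation p under 0.05. Over 21 alternatives the call was lost in 2 for Sobic.009G116700, 8 for Sobic.001G191200, 4 for Sobic.010G245500 and 1 for Sobic.009G033600, and none changed direction. Calls in product lists were not run. Precision was lower at low levels, with a median standard error (log2) of 2.31 between 1 and 10 CPM and 0.446 between 100 and 1000 CPM. The parts of depth and spread in this were not tested.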
